A study of Mus musculus with 2 samples.

Results

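The interferon response genes described here are Ifit1, Ifit3, Rsad2, Isg15, Ifitm1, Ifitm3, Irf7 and Bst2, chosen by name as common targets of interferon signalling, 8 of the 22023 genes listed in both count tables. Their unique molecular identifier (UMI) counts came from single-cell RNA sequencing of the fetal mouse pancreas at E15.5, digested with an enzyme and captured in BD Rhapsody micro-wells, with 1 library from wild-type embryos (WT) and 1 from Mettl3pKO embryos, in which Pdx1+ pancreatic progenitors lack Mettl3, the catalytic part of the complex that methylates adenosines in RNA. The labels give neither the Cre driver, nor the strain, nor how many embryos were pooled. With 1 library per genotype no difference between WT and Mettl3pKO has a replicate check, no test was made, and every interval below is a 95% interval for counting error only.

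Type I interferons signal through Ifnar1 and Ifnar2 to receptor-bound kinases and a transcription factor complex that holds Stat2 and Irf9, which binds an interferon-stimulated response element in the promoters of its targets. Interferon gamma and interferon lambda use other receptors but share part of the pathway. Some targets are silent until a cell is stimulated, whereas IFITM genes and Bst2 are also known to be transcribed in tissues without infection.

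There were 6384 complete WT cells with 80011421 UMIs in all, and 3624 Mettl3pKO cells with 65779771. Median depth was 10824 UMIs per cell in WT and 16481 in Mettl3pKO, and the shallowest cell had 3803 and 10719 UMIs. After filters, 6034 WT and 3622 Mettl3pKO cells remained, and 33 cell labels occurred in both libraries. The libraries also differed in sex: 28.2% of the WT cells and 56.3% of the Mettl3pKO cells had Y-linked but no Xist UMIs. In the epithelial cells, 2 of 20 genes of a list for dissociation stress were at least 1.5-fold higher in Mettl3pKO, Hspa1b at 2.54 and Hspa1a at 2.02 times WT, and 2 were as far lower, where 9.26% and 23% of all genes were. The part of depth, sex and stress in the differences below was not tested, except where a value is given. The targeted gene, Mettl3, stood at 13.0 CPM (counts per 1000000 UMIs) in WT and 8.24 CPM in Mettl3pKO over the pancreatic epithelial classes, a ratio of 0.634 (0.563 to 0.715). By class the ratio was higher, at 0.788 in acinar-like, 0.781 in alpha-like, 0.677 in duct and trunk-like and 0.654 in beta-like cells, and the mix of these classes differed. Over the other named classes it stood at 16.9 and 14.3 CPM, a ratio of 0.847 (0.677 to 1.05), with 0.332 in erythroid-like and 1.56 in mesothelium-like cells. The tables do not show which part of the gene was counted.

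Clusters were named by marker genes. The pancreatic epithelium comprised 1846 acinar-like, 1316 duct and trunk-like, 317 alpha-like and 261 beta-like WT cells, and 2151, 445, 143 and 164 such Mettl3pKO cells. Endocrine progenitor-like, Fev precursor-like and delta-like cells numbered 175, 239 and 95 in WT, and 5, 18 and 3 in Mettl3pKO. Outside the epithelium, 1185 and 282 cells were mesenchyme-like, 202 and 77 mesothelium-like, 84 and 45 macrophage-like, and 112 and 47 erythroid-like. The macrophage-like cluster was led by the neutrophil genes S100a8 and S100a9 beside Lyz2 and C1qc, and thus mixes myeloid cells. A further 49 and 32 cells, led by Cpa3, Cma1 and Tpsb2, are called mast-like.

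Promoter sequence gives a first division of the 8 genes. The core of the response element, searched as GAAA, any 2 bases (NN) and GAAA on either strand with overlapping matches counted, occurred within the 250 bases before the start of Ifit1 (2 matches), Ifit3 (2), Rsad2 (1), Isg15 (3) and Bst2 (2). It did not occur in that window for Ifitm1, Ifitm3 and Irf7, which says only that these letters are not in this window. Of 27018 genes with a promoter in the RefSeq table, 936 (3.46%) held a match. The stretches around the match nearest to each start are shown because these 5 genes carry the element. They read 5′ to 3′ along the gene's own strand, from RefSeq on build GRCm38.p6, with the matched bases in capitals. On the other strand the element reads as TTTC, NN and TTTC.

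Ifit1, chr19:34640773-34640825: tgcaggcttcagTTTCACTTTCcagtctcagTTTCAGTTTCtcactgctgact

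Ifit3, chr19:34583395-34583428: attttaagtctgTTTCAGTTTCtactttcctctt

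Rsad2, chr12:26456551-26456584, minus strand: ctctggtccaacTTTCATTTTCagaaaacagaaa

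Isg15, chr4:156200863-156200908, minus strand: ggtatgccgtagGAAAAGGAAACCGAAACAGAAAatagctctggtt

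Bst2, chr8:71537575-71537614, minus strand: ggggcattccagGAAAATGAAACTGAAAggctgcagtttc

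On build GRCm38, Ifit3 and Ifit1 lie on chromosome 19, 52139 bases apart, and Ifitm1, Ifitm3 and Irf7 lie on chromosome 7, where 39760 bases separate Ifitm1 from Ifitm3. Irf7 overlaps Phrf1 on the opposite strand, and no source used here says whether the authors' counting used strand, so that reads of this pair may not be told apart. Ifit3 has a near-identical neighbour, Ifit3b, and their reads may have been split between the pair.

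Ifit1 and Ifit3 encode RNA-binding proteins that block translation of viral RNA. In WT their transcripts came from very few cells. Ifit1 had 203 UMIs in 51 of the 6034 WT cells, and the 10 cells with most Ifit1 held 65.0% of them. Ifit3 had 196 UMIs in 57 cells, of which 10 cells held 59.7%. The highest single cells had 29 Ifit1 UMIs and 23 Ifit3 UMIs. Of the 10 top cells, 6 were mesenchyme-like and 2 mesothelium-like for Ifit1, and 7 were mesenchyme-like and 3 macrophage-like for Ifit3. In Mettl3pKO, Ifit1 had 23 UMIs in 19 cells and Ifit3 had 16 UMIs in 14 cells, with no cell above 3 and 2 UMIs. There the top 10 cells held 60.9% and 75%, but nearly every cell with the transcript had a single UMI, so that these shares describe a low total and not a few strong cells.

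Isg15, a ubiquitin-like protein that is conjugated to other proteins, was also found in few WT cells, with 70 UMIs in 47 cells. The 10 top cells held 40% of them, but with 2 to 4 UMIs each, so that this share partly describes a low total. Those 10 comprised 7 mesenchyme-like, 2 macrophage-like and 1 mesothelium-like cell. Mettl3pKO had 21 Isg15 UMIs in 16 cells. The other genes were spread more widely: in WT the 10 top cells held 14.7% of the Irf7 UMIs, 12.4% for Ifitm1, 9.13% for Rsad2, 2.64% for Bst2 and 1.98% for Ifitm3. The Mettl3pKO shares were 27.1%, 23.7%, 15.0%, 2.97% and 1.5%. For Irf7 that share describes a low total, 48 UMIs in 45 cells with at most 2 in a cell.

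**Figure D1:**
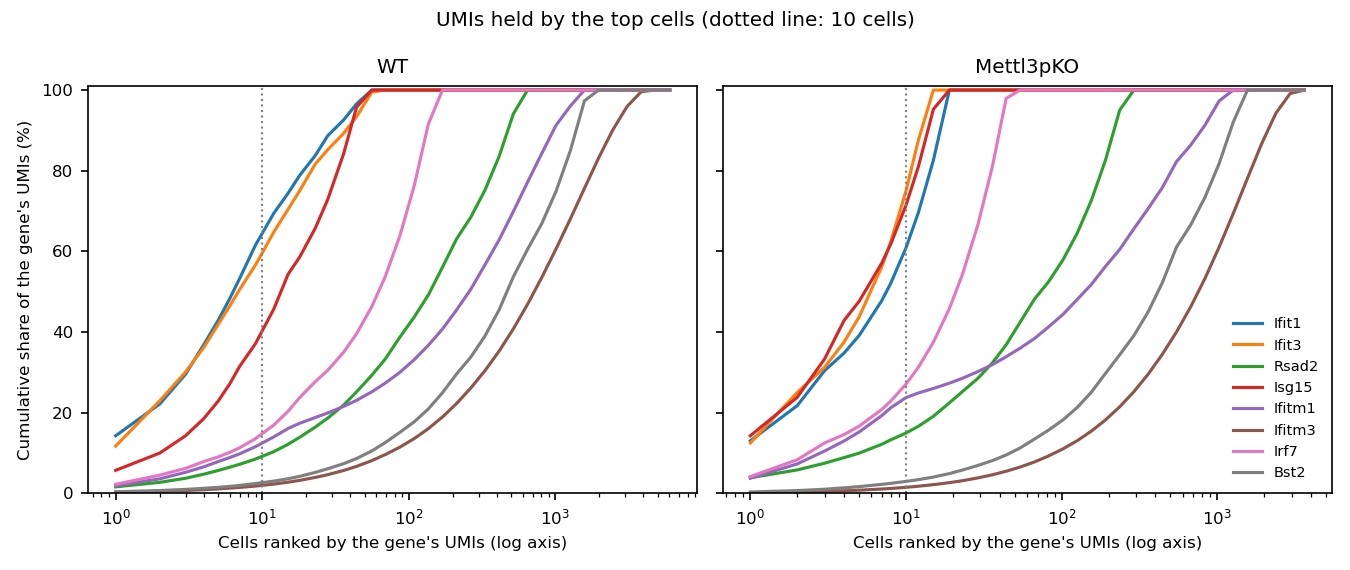
Cumulative share of each gene's UMIs (y axis, percent) over cells ranked by that gene's UMIs (x axis, log scale), WT on the left and Mettl3pKO on the right, with a dotted line at 10 cells. The Ifit1, Ifit3 and Isg15 curves reach 65.0%, 59.7% and 40% at 10 WT cells, while Bst2 and Ifitm3 stay at 2.64% and 1.98%.

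Many of the strong cells carried several of these genes at once. In WT, 34 cells had 3 or more UMIs of Ifit1 and Ifit3 summed, or 0.563% (0.391% to 0.787%). They comprised 21 mesenchyme-like, 8 macrophage-like, 3 mesothelium-like, 1 duct and trunk-like and 1 endothelium-like cell. Of the 34, 29 had UMIs of at least 2 of Ifit1, Ifit3, Rsad2 and Isg15, and 12 had all 4. Ifit1 and Ifit3 count here although they chose the cells. Rsad2, which did not, had a UMI in 14 of the 21 mesenchyme-like and 4 of the 8 macrophage-like cells. For Isg15 these were 12 and 5 cells. Over all WT cells, Ifit1 and Ifit3 were found together in 20 cells, where their shares within each class gave 1.18, and Pearson's r of their log levels was 0.51 over 6034 cells that share a library. Ifit1 and Isg15 met in 18 cells against 1.18, and Ifit1 and Rsad2 in 26 against 4.21. Ifit1 and Ifitm3 met in 38 cells against 30.9, close to the number the class shares gave. In Mettl3pKO, Ifit1 and Ifit3 met in 1 cell, against 0.137 from the class shares.

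**Figure D2:**
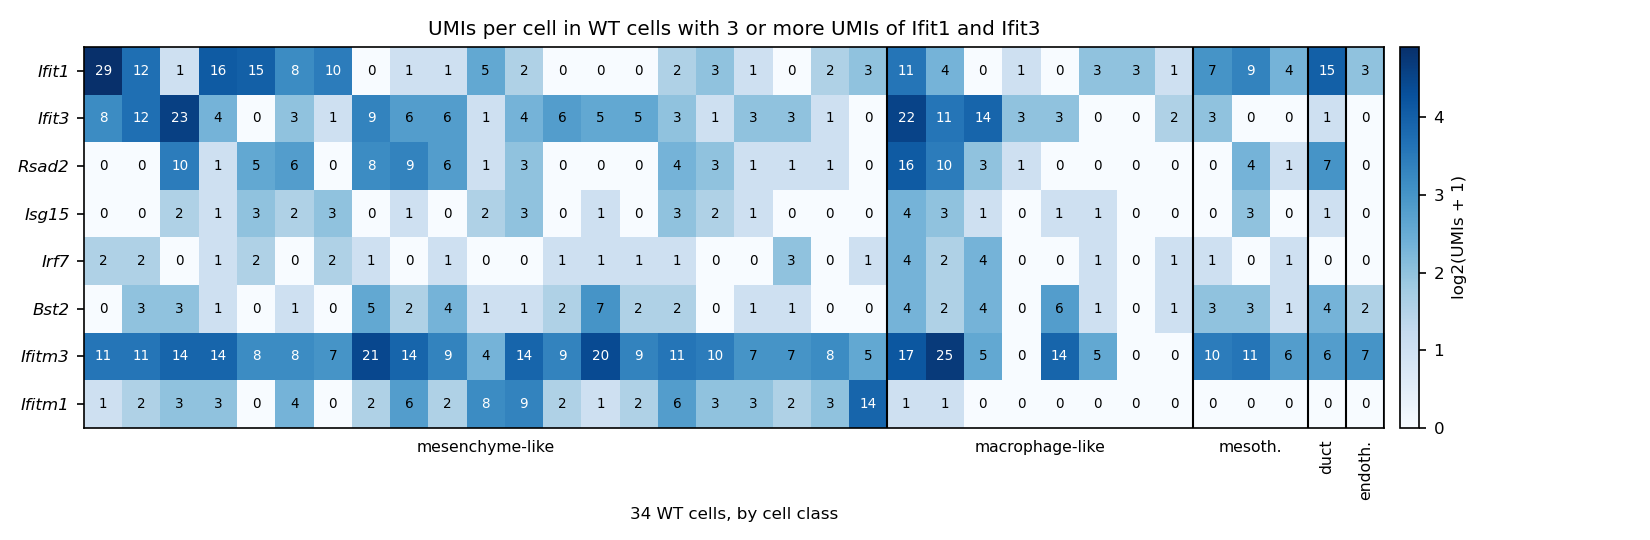
UMIs of the 8 genes (rows) in each of the 34 WT cells (columns) with 3 or more UMIs of Ifit1 and Ifit3 summed, grouped by cell class, with colour on a log2(UMIs + 1) scale. The highest values are 29 UMIs of Ifit1 and 23 of Ifit3 in mesenchyme-like cells, and 12 of the 34 cells have Ifit1, Ifit3, Rsad2 and Isg15 together.

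In the 21 mesenchyme-like cells of this kind, Ifit1 ran from 0 to 29 UMIs with a median of 2, Ifit3 from 0 to 23 with a median of 4, and Rsad2 from 0 to 10 with a median of 1. These cells were not deeper than their neighbours, with medians of 8023 UMIs against 8933 in other WT mesenchyme-like cells, but their median doublet score was 0.0494 against 0.0151. The 8 macrophage-like cells had a median of 12928 UMIs against 9362, and doublet scores of 0.0486 against 0.0591. The part of depth and doublets was not tested. Of the 21, 19 lay in 1 cluster, led by Col5a3, Mfap5, Ogn and Aspn, where they made up 3.76% of 505 WT cells, and 18 had Xist but no Y-linked UMIs. Xist without Y-linked UMIs was found in 53.7% of all WT mesenchyme-like cells. The summed mesenchyme markers had a median of 395 UMIs per 10000 in the 21 cells and 330.8 in the others, with 12 of 13 markers present. Of 12 macrophage markers, 2 had a UMI in the 21 cells, with 0 to 2.04 UMIs per 10000 for the sum, against 3.99 to 273 in macrophage-like cells; none of 11 lymphoid markers had one.

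The same 21 cells held many other transcripts of the response, none of which was used to choose them, though reads of Ifit3b may have been split with Ifit3. Of 105 other genes of the interferon lists with enough UMIs, 63 were at least 3-fold higher than in the other 1164 WT mesenchyme-like cells whereas 2.59% of all 11991 genes tested were as far higher. As far lower were 2 of the 105 and 1949 of all genes. Enough meant 20 UMIs over both sets of cells together. A gene with fewer in the other 1164 cells could thus pass only through the 21 cells, and was then bound to be higher. Ifit3b, Usp18 and Ifi47 are such genes, and the same minimum held for all genes tested. Ifit3b stood at 208 CPM against 0.634 CPM, Iigp1, an immunity-related GTPase, at 499 against 2.72 CPM, and Usp18, which removes Isg15 from proteins and dampens the receptor, at 234 against 1.72 CPM. Cxcl10, a chemokine that attracts T cells, stood at 681 against 9.51 CPM and had UMIs in 14 of the 21 cells. Iigp1, Igtp, 86.1 times as high, and Ifi47 at 72.8 against 0.634 CPM are known as strong targets of interferon gamma. B2m, the light chain of MHC class I, was 2.39 times as high and Ifitm2 0.812 times, so that part of the lists did not differ by 3-fold. The 8 macrophage-like cells showed fewer such genes, 32 of 100 at least 3-fold higher against 2.47% of 6387 genes, with Cxcl10 at 1459 against 22.9 CPM. The same minimum, with the same limit, applied there.

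No Mettl3pKO cell of these classes was of this kind: 0 of 282 mesenchyme-like cells, which allows a share of up to 1.06%, against 1.77% (1.10% to 2.70%) in WT (the exact upper limit of 1.30% for 0 of 282 overlaps that interval), and 0 of 45 macrophage-like cells, which allows up to 6.67%, against 9.52% (4.20% to 17.9%). The single Mettl3pKO cell with 3 or more such UMIs was alpha-like. The mesenchyme-like class lay in different clusters in each library: the Col5a3-led cluster with 19 of the 21 cells held 505 of the 1185 WT but 82 of the 282 Mettl3pKO cells. There the WT share was 3.76% (2.28% to 5.81%), and none of the 82 Mettl3pKO cells was of this kind, a count of 0 that allows up to 3.66%. The Tubb6-led cluster held 139 of the Mettl3pKO cells and had no such cell in either library. Depth bears on this, since only 4 of the 21 WT mesenchyme-like cells had at least the 10719 UMIs of the shallowest Mettl3pKO cell. Above that floor the WT share was 4 of 304 mesenchyme-like cells, or 1.32% (0.360% to 3.33%), which overlaps the range that 0 of 282 allows, and 5 of 29 macrophage-like cells, or 17.2% (5.85% to 35.8%), whose lower bound is under the 6.67% that 0 of 45 allows. This floor sets a minimum only, and depths above it still differed. Sex differed too. Xist without Y-linked UMIs was found in 26 of the 34 WT cells and 18 of the 21 mesenchyme-like ones. It was found in 55.6% of all WT but 19.0% of all Mettl3pKO cells. The part of sex was not tested.

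These few cells held most of the UMIs of their classes. In mesenchyme-like cells Ifit1 stood at 10.1 CPM in WT (114 UMIs) and 0.250 CPM in Mettl3pKO (1 UMI), and Ifit3 at 10.9 and 1.25 CPM, ratios of 0.0247 (0.000620 to 0.140) and 0.115 (0.0368 to 0.277). With the 21 cells left out, 3 Ifit1 and 18 Ifit3 UMIs remained in WT and the ratios were 0.922 (0.0176 to 11.5) and 0.768 (0.223 to 2.15). The cells were chosen by these same UMIs and all were WT, so that leaving them out had to raise both ratios. In macrophage-like cells Ifit1 stood at 27.1 and 4.93 CPM and Ifit3 at 62.2 and 1.23 CPM. With the 8 cells left out, 1 WT UMI of Ifit1 and none of Ifit3 remained. In acinar-like cells, by contrast, Ifit1 had 2 WT and 3 Mettl3pKO UMIs and Ifit3 had 1 and 2, which is at or under the floor of 3 counts. In WT duct and trunk-like cells 1 cell held 15 of the 21 Ifit1 UMIs.

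**Figure D3:**
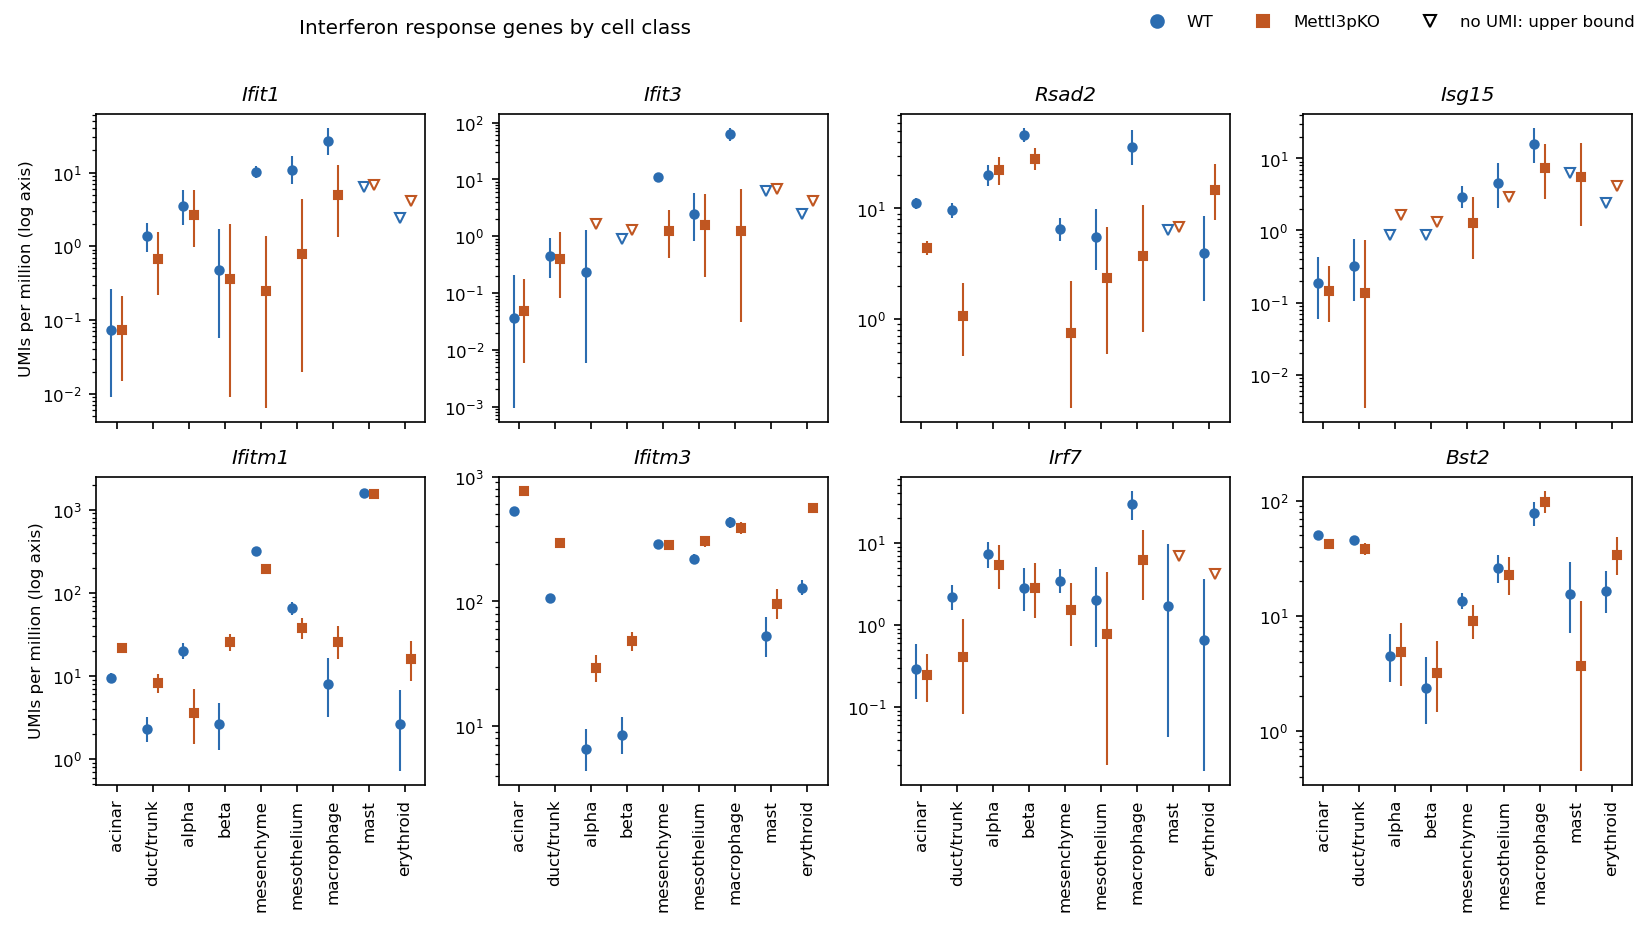
Level in CPM (log axis) of each gene in the 9 classes with at least 30 cells in both libraries, WT as blue circles and Mettl3pKO as orange squares, with exact Poisson 95% intervals; open triangles mark the upper bound where no UMI was found. Ifit1 and Ifit3 were highest in WT macrophage-like cells at 27.1 and 62.2 CPM, and Ifitm1 was highest in mast-like cells at 1582 and 1526 CPM.

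Rsad2, or viperin, makes a chain-terminating nucleotide that blocks viral polymerases. Unlike Ifit1 and Ifit3 it was found in 576 WT cells, with its highest level in beta-like cells. WT levels were 46.6 CPM in beta-like cells (40.3 to 53.6), 37.2 CPM in endocrine progenitor-like cells (28.4 to 47.9), 36.2 CPM in macrophage-like cells (24.7 to 51.1) and 25.1 CPM in Fev precursor-like cells (19.2 to 32.2). The intervals of the first 3 overlap, and so do those of the last 3. Alpha-like cells had 20.1 CPM (16.1 to 24.9), acinar-like cells 11.2 CPM and delta-like cells 3.27 CPM (0.674 to 9.56). The macrophage-like level rested on 5 cells, of which 1 held 16 of the 32 UMIs, whereas the top beta-like cell held 3.06% of 196 UMIs. In WT, 41.0% of the beta-like cells had a UMI, or 22.4% after thinning to a common 7815 UMIs, against 2.28% of the mesenchyme-like cells, or 1.85% after thinning. Median depth was 15243 UMIs in the former and 8911 in the latter.

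In beta-like cells Rsad2 came with few UMIs of the IFIT genes. Beta-like cells of both libraries had no UMI of Ifit3 or Isg15, and 2 and 1 UMIs of Ifit1. The 2 WT beta-like cells with most Rsad2, at 6 UMIs each, had no UMI of the other 7 genes. In the WT duct and trunk-like class, 116 of 148 Rsad2 UMIs came from 1 cluster of 385 cells, led by Grin3a, Fgfr3 and Neurog3, the last being the transcription factor that starts endocrine differentiation. Its level was 28.0 CPM, against 2.49 and 3.05 CPM in the Spp1-led duct clusters. In WT, Rsad2 thus stood at 20.1 to 46.6 CPM in the Neurog3-led cluster and in beta-like, alpha-like, Fev precursor-like and endocrine progenitor-like cells, and lower in delta-like cells.

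Rsad2 was lower in Mettl3pKO over the epithelium, at 15.3 CPM in WT and 6.09 CPM in Mettl3pKO, a ratio of 0.398 (0.349 to 0.452). The mix of classes moved with it: endocrine progenitor-like cells numbered 175 in WT and 5 in Mettl3pKO. Only 31 of the 175 had at least the 10719 UMIs of the shallowest Mettl3pKO cell. In beta-like cells the level went from 46.6 to 28.1 CPM, a ratio of 0.604 (0.459 to 0.788), and in alpha-like cells from 20.1 to 22.2 CPM, a ratio of 1.10 (0.761 to 1.58). The duct and trunk-like ratio was 0.111 (0.0472 to 0.225), but the Neurog3-led cluster held only 15 Mettl3pKO cells. Without it the ratio was 0.339 (0.126 to 0.782), on 32 and 7 UMIs.

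Acinar-like cells went from 11.2 to 4.40 CPM of Rsad2, a ratio of 0.394 (0.326 to 0.475), though not in each of their 6 clusters. The Serpina6-led, Cckar-led and Gc-led clusters had ratios of 0.232, 0.343 and 0.299. The Rrm2-led and Gm10334-led clusters had 1.08 and 1.13, and the cluster led by the cell division genes Fam83d and Ube2c had 2.07 (0.907 to 5.84), on 6 and 71 UMIs. Rsad2 was thus lower in Mettl3pKO in 3 of the 6 acinar clusters.

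Ifitm1 and Ifitm3 encode membrane proteins that hold back viral fusion, and both are also known from early germ cells. Their distributions across classes differed. Ifitm1 was highest in mast-like cells, at 1582 CPM (1482 to 1688) in WT and 1526 CPM in Mettl3pKO, followed in WT by smooth muscle and pericyte-like cells at 365 CPM, mesenchyme-like cells at 321 CPM and mesothelium-like cells at 65.5 CPM. The first 2 of these followers have overlapping intervals. Of the 10 cells with most Ifitm1, 9 in WT and 10 in Mettl3pKO were mast-like, although 61.2% and 65.6% of mast-like cells had a UMI and the top cell held 100 and 121.

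Ifitm3 was instead highest in acinar-like cells. WT acinar-like cells had 527 CPM and Mettl3pKO ones 765 CPM, with a UMI in 95.1% and 99.3% of cells, and 9 of the 10 top cells in WT and all 10 in Mettl3pKO were acinar-like. The next WT levels were 434 CPM in macrophage-like (392 to 480) and 403 CPM in endothelium-like cells (358 to 453), which overlap, then 310 CPM in smooth muscle and pericyte-like and 286 CPM in mesenchyme-like cells, which overlap too. Duct and trunk-like cells had 107 CPM, and beta-like and alpha-like cells 8.56 and 6.56 CPM.

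Over the epithelium Ifitm3 stood at 287 CPM in WT and 627 CPM in Mettl3pKO, a ratio of 2.18 (2.14 to 2.22), and Ifitm1 at 7.69 and 19.1 CPM, a ratio of 2.48 (2.21 to 2.78). The mix of classes differed too: 1846 of 4249 WT and 2151 of 2929 Mettl3pKO epithelial cells were acinar-like. Among WT epithelial cells with at least 10719 UMIs, 1252 of 2435 were acinar-like. The acinar-like ratio alone was 1.45 (1.42 to 1.48), under the 1.5-fold limit, where the median acinar gene had a log2 ratio of 0.19. Within each of the 6 acinar clusters it lay between 1.12 and 1.31. The median acinar-like cell had 4.70 Ifitm3 UMIs per 10000 in WT and 7.06 in Mettl3pKO, and the ranges from the 25th to the 75th percentile, 2.66 to 7.05 and 4.64 to 9.88, overlapped.

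**Figure D4:**
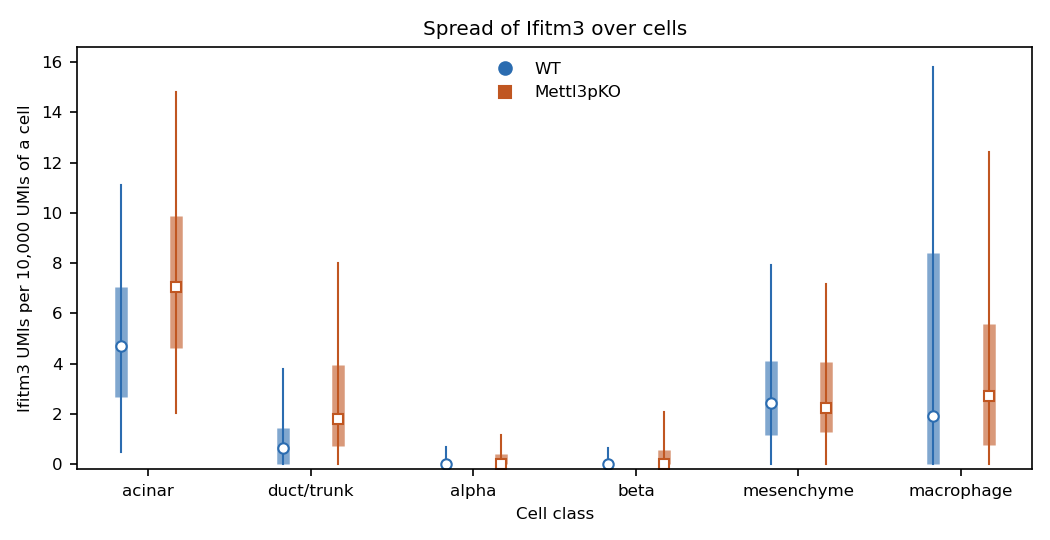
Ifitm3 UMIs per 10000 UMIs of a cell (y axis) in 6 classes, WT in blue and Mettl3pKO in orange; points are medians over cells, thick bars run from the 25th to the 75th and thin lines from the 5th to the 95th percentile. The medians are 4.70 and 7.06 in acinar-like cells, 0.659 and 1.81 in duct and trunk-like cells, and 0 in alpha-like and beta-like cells of both libraries.

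In duct and trunk-like cells Ifitm3 went from 107 to 295 CPM, a ratio of 2.76 (2.59 to 2.95), and the ratio was 2.15 to 2.27 within the 3 clusters that could be compared. The summed level of the 12 acinar markers moved with it, from 2224 to 7312 CPM, with a median cell at 12.8 and 13.9 UMIs per 10000 and ranges of 1.01 to 605 and 2.45 to 1002. In acinar-like cells the markers moved the other way, from 76853 to 42810 CPM, so that there were 0.686 Ifitm3 UMIs per 100 acinar marker UMIs in WT and 1.79 in Mettl3pKO.

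Alpha-like and beta-like cells were the only endocrine classes with enough cells for a ratio. Their Ifitm3 ratios were 4.46 (2.83 to 7.21) and 5.58 (3.84 to 8.30), at low levels of 6.56 to 29.3 CPM and 8.56 to 47.7 CPM. Most of these cells had no UMI. Per 100 acinar marker UMIs, alpha-like cells had 0.736 Ifitm3 UMIs in WT and 2.11 in Mettl3pKO, and beta-like cells 0.713 and 3.44. The alpha-like values and the WT beta-like value were close to those of acinar-like cells, and the Mettl3pKO beta-like value was above them. The part of acinar RNA in these levels was not tested. Erythroid-like cells had 129 and 559 CPM of Ifitm3, while their median acinar marker sum went from 9.04 to 186 UMIs per 10000, and at least 11 of the 12 markers had a UMI in each library. The class lay in different clusters: the Car2-led one held 69 WT and 2 Mettl3pKO cells, with 2.08 CPM of Ifitm3 in WT. In the Hbb-bt-led cluster, with 43 and 45 cells, Ifitm3 stood at 351 and 581 CPM, a ratio of 1.66 (1.40 to 1.96).

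In 3 classes outside the epithelium Ifitm3 differed by under 1.5-fold: 286 and 283 CPM in mesenchyme-like cells, a ratio of 0.987 (0.921 to 1.06), 434 and 391 CPM in macrophage-like cells, a ratio of 0.900 (0.773 to 1.05), and 221 and 304 CPM in mesothelium-like cells, a ratio of 1.38 (1.2 to 1.58). The acinar markers were 10.6 times as high in Mettl3pKO mesothelium-like cells as in WT, and 15.4 times in macrophage-like cells (686 and 10591 CPM). Their part in the ratios of these classes was not tested. Ifitm2, the neighbouring family member in the lists, stood at 288 and 241 CPM over the epithelium, a ratio of 0.835 (0.816 to 0.855), while Ifitm1 and Ifitm3 were higher there.

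Ifitm1 differed between WT and Mettl3pKO in opposite directions. It was higher in Mettl3pKO acinar-like cells, at 9.52 and 21.6 CPM and a ratio of 2.26 (1.97 to 2.61), in duct and trunk-like cells, at 2.28 and 8.18 CPM and 3.59 (2.33 to 5.61), and in beta-like cells, at 2.62 and 25.3 CPM and 9.67 (5.09 to 20.2). Within the 6 acinar clusters the ratio was 1.25 to 2.16, at 1.28 and 1.25 in the Serpina6-led and Fam83d-led clusters, which held 862 and 681 of the 2151 Mettl3pKO but 103 and 112 of the 1846 WT cells. The beta-like value moved to 2.22 when cells marked as doublets were kept and to 3.73 with finer clusters. Ifitm1 was lower in mesenchyme-like cells, at 321 and 194 CPM and a ratio of 0.605 (0.559 to 0.654), and in mesothelium-like cells, at 65.5 and 37.5 CPM and 0.573 (0.403 to 0.803), and was 0.965 (0.877 to 1.06) in mast-like cells. In 3 mesenchyme clusters it lay between 0.537 and 0.758. The alpha-like ratio of 0.178 rested on 1 WT cell with 69 of the 85 Ifitm1 UMIs. That cell also had 41 UMIs of the mast and granulocyte markers, where the other alpha-like WT cells had at most 8, and without it the ratio was 0.940.

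**Figure D5:**
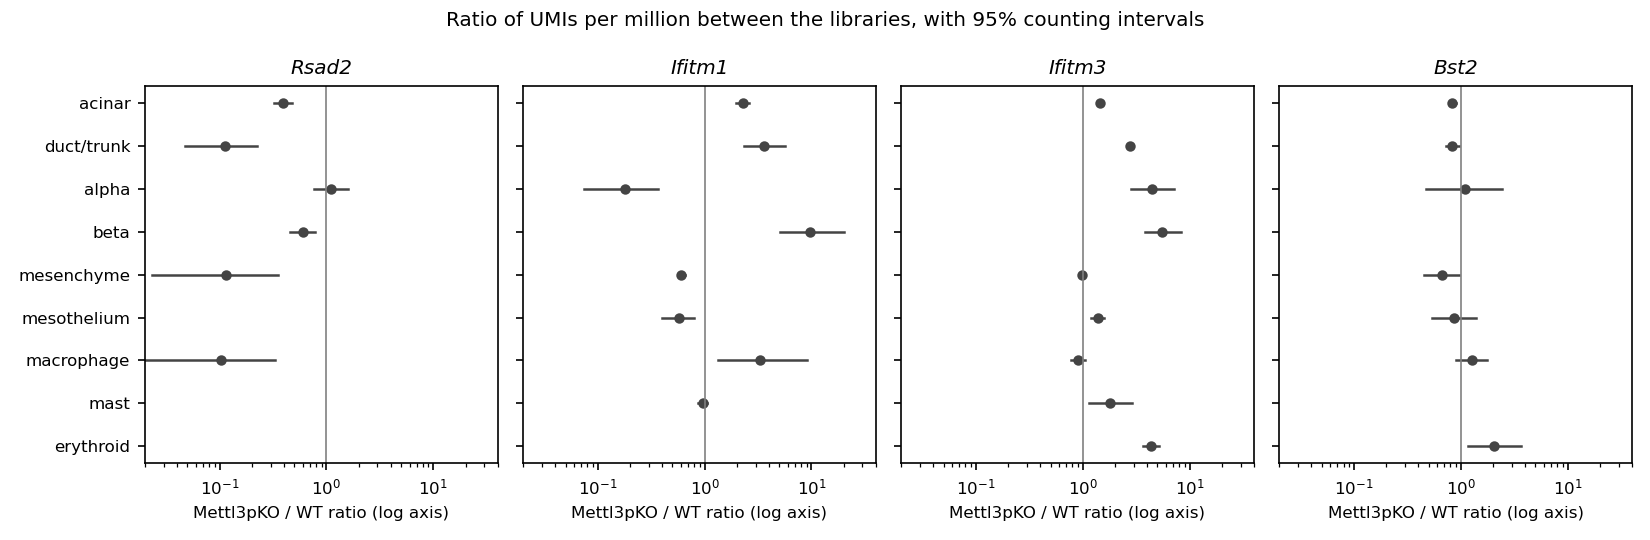
Ratio of CPM in Mettl3pKO to WT (x axis, log scale) of Rsad2, Ifitm1, Ifitm3 and Bst2 in each class with at least 20 UMIs (y axis), with exact 95% counting intervals and a line at 1. Rsad2 lies at 0.394 in acinar-like and 1.10 in alpha-like cells, Ifitm1 at 2.26 in acinar-like and 0.605 in mesenchyme-like cells, and Bst2 near 1 in most classes.

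Bst2, or tetherin, holds budding virus particles at the cell surface. Its highest WT level was in endothelium-like cells, at 134 CPM (109 to 164), then macrophage-like cells at 78.0 CPM (60.7 to 98.7), acinar-like cells at 50.4 CPM (47.8 to 53.2) and duct and trunk-like cells at 45.8 CPM (42.4 to 49.3), and the last pair overlap. Endocrine progenitor-like, beta-like, Fev precursor-like and alpha-like cells had 2.38 to 4.45 CPM. The Neurog3-led cluster had 44.1 CPM, close to the other duct and trunk-like cells. Over the epithelium it stood at 37.8 and 37.6 CPM, a ratio of 0.994 (0.935 to 1.06), and the acinar-like ratio was 0.833 (0.775 to 0.894).

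Irf7, the transcription factor that amplifies type I interferon production, had 177 UMIs in 151 WT cells and 48 in 45 Mettl3pKO cells. It was highest in WT macrophage-like cells, at 29.4 CPM (19.2 to 43.1), with delta-like, alpha-like and endothelium-like cells at 8.72, 7.26 and 7.08 CPM and overlapping intervals. Acinar-like cells had 0.294 CPM. In Mettl3pKO macrophage-like cells it stood at 6.16 CPM, a ratio of 0.210 (0.0629 to 0.555). Without the 8 WT macrophage-like cells rich in Ifit1 and Ifit3 it was 0.347 (0.0977 to 1.02), on 14 and 5 UMIs. The alpha-like ratio was 0.733 (0.343 to 1.47) and the beta-like one 0.999 (0.354 to 2.66). The duct and trunk-like ratio was 0.182 (0.0357 to 0.578), on 34 and 3 UMIs, and 0.245 (0.0464 to 0.831) without the Neurog3-led cluster. Acinar-like cells had 8 and 10 UMIs, too few for a ratio. The epithelial ratio was 0.360 (0.238 to 0.533), from 1.8 to 0.648 CPM. It lay between the duct and trunk-like and alpha-like ratios, beside the larger acinar share of the Mettl3pKO epithelium. The part of that share was not tested.

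Over the epithelium, 6 of the 8 genes had the 20 UMIs set as the minimum. Of these, 2 were at least 1.5-fold higher in Mettl3pKO, Ifitm1 and Ifitm3, against 9.26% of 15705 genes; 3 were as far lower, Ifit1, Rsad2 and Irf7, against 23%; and Bst2 lay between. Without the 1 duct and trunk-like WT cell that held 15 of the 40 Ifit1 UMIs, the Ifit1 ratio was 0.706 (0.358 to 1.36), within 1.5-fold. Either way the background was 32.2%. Ifit3 had 12 and 5 epithelial UMIs and Isg15 had 10 and 7, too few for a ratio. The median log2 ratio was -0.58 over the 6 genes and -0.16 over all genes. Among the other named classes together, 5 of 8 genes were lower against 8.46% of 14537 genes, and none was higher against 11.1% (either way, 19.6%), with Ifit1 at 0.0816, Ifit3 at 0.0964, Irf7 at 0.350, Rsad2 at 0.447 and Isg15 at 0.517 times WT. Of the 34 WT cells rich in Ifit1 and Ifit3, all but the duct and trunk-like one are among these.

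By class, 7 of 8 genes were lower in Mettl3pKO mesenchyme-like cells against 6.3% of all genes, with none higher against 8.79%. A call rests on the ratio alone, and the intervals of Isg15 (0.130 to 1.10) and Irf7 (0.150 to 1.03) in these cells include 1. So do those of 2 lower calls below, Isg15 in macrophage-like (0.147 to 1.29) and Ifit1 in duct and trunk-like cells (0.145 to 1.34). Without the 21 mesenchyme-like cells rich in Ifit1 and Ifit3, 5 genes had enough UMIs in that class and Ifitm1 alone was lower, at 0.608. Leaving out such cells, here and below, took out WT cells only, chosen by the UMIs of these genes. In macrophage-like cells 5 of 8 genes were lower against 15%, with Ifitm1 higher against 22.2%. Without the 8 macrophage-like cells rich in Ifit1 and Ifit3, none of those 5 genes had the 20 UMIs needed, the Rsad2 and Isg15 ratios were both 1.46, and Bst2 was higher, at 1.52. Duct and trunk-like cells had 3 of 6 lower against 9.94% and 2 higher against 11.7% (either way, 21.7%), but without that cell Ifit1 had 6 and 5 UMIs, too few for a ratio. Acinar-like cells had 1 of 4 lower against 8.07% and 1 higher against 22.4% (either way, 30.4%). Beta-like cells had 1 of 4 lower against 4.97% and 2 higher against 11.8% (either way, 16.8%). Alpha-like cells had 1 of 6 each way, against 5.3% and 7.42%. Mesothelium-like cells had 2 of 4 lower against 13.3% (either way, 27.6%), Ifit1 and Ifitm1. Without the 3 mesothelium-like cells rich in Ifit1 and Ifit3, Ifit1 had 2 and 1 UMIs, too few for a ratio, and Ifitm1 stood at 0.566. Erythroid-like cells had both of 2 higher against 28.8% and none lower against 27.8%, and mast-like cells had 1 of 2 higher against 15.3%. In cells above the common depth floor, the 20 lower values by class became 8 and in cells with Y-linked but no Xist UMIs 6. A value also leaves this count when too few UMIs remain for a call, so that these are not counts of differences that vanished. The floor left 304 of 1185 mesenchyme-like and 29 of 84 macrophage-like WT cells. No share over all genes is given for these subsets. Within the Hbb-bt-led erythroid cluster Bst2 was no longer higher, at 0.925. The floor left 4 of the 21 mesenchyme-like cells rich in Ifit1 and Ifit3.

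The rest of the pathway was measured in the same epithelial cells, where 9.26% of all genes were higher and 23% lower. Only 4 of the interferon ligands searched for were listed for both libraries, and these had few UMIs. Ifnab had 3 WT and 4 Mettl3pKO UMIs over all kept cells, Ifnz 7 and 3, Ifng 0 and 2, and Ifnl2 none. Other ligands, Ifnb1 among them, were not listed for both libraries and were not measured here. The receptors were expressed, and none of 6 passed 1.5-fold in either direction; Ifnar1 stood at 19.2 and 22.1 CPM. Of 7 signal transducers, 1 was lower, Stat3 at 0.523 times WT (0.497 to 0.551). Of 13 sensors and adaptors of foreign nucleic acid, Mavs, the mitochondrial adaptor of the RNA sensors, was higher at 1.61. Among those lower were Tlr3 at 0.459 and Ifih1, the MDA5 RNA sensor, at 0.645. Irf1 was the only 1 of 7 kinases and interferon regulatory factors past the limit, at 0.606. These small counts are near the shares over all genes.

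Among 48 other interferon-stimulated genes, 20 were lower and 5 were higher; the median of their log2 ratios was -0.40, and that of all genes -0.16. Usp18 stood at 5.10 and 1.59 CPM, a ratio of 0.312 (0.242 to 0.398), Epsti1 at 0.386 and Samd9l at 0.439. Oasl1, an OAS-like protein, went the other way, from 0.785 to 2.70 CPM, a ratio of 3.44 (2.44 to 4.94). Antigen presentation genes had 5 of 14 lower and none higher, led by H2-T23 at 0.347, an MHC class Ib gene. Negative regulators had 2 of 14 lower, Usp18 and the phosphatase Ptpn6 at 0.644. Over all 111 such genes, 31 (including Usp18) were lower and 6 higher, beside 23% and 9.26% of all genes, so that the lists as a whole were near the background.

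By pattern over 23 sums of class and library with at least 30 cells, which share libraries and depth, the genes most like Ifit1 were Irgm1 (Pearson's r 0.81) and Oasl2 (0.76), and those most like Ifit3 were Stat2 (0.82) and Irgm1 (0.78). Isg15 was most like Trim30a (0.90) and Vsir (0.82). Ifitm3 was most like Eif4ebp1 (0.97) and Ggta1 (0.95), Bst2 like Marc2 (0.91) and Hpgd (0.88), and Ifitm1 like Il6 (0.85) and Rbl2 (0.82). Rsad2 was most like Mlx (0.81) and Slc36a1 (0.81), and Irf7 like Abca1 (0.82) and Man1c1 (0.79). The closest genes of Ifit1, Ifit3 and Isg15 thus included known interferon targets, and those of the other members did not.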

How the data were processed

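The authors deposited 1 table of UMI counts, cells by genes, for each library, made with the BD Rhapsody whole-transcriptome pipeline, version 1.8, per the file headers; the submitters' processing notes name build mm10 and Seurat. Each table ended in an incomplete cell, which was dropped, and cells shallower than the last were not analysed here.

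Kept were cells of 200 genes or more in which mitochondrial UMIs made up no more than 25%. Cells marked by Scrublet were dropped: 5.30% in WT but 1 of 3623 in Mettl3pKO, where the caller thus failed and doublets remain. With scanpy 1.11.5, 2000 variable genes, 30 principal components, 15 neighbours and Leiden resolution 1.0 gave 28 clusters, each named by the highest of 21 marker lists. No name was given to a cluster whose median doublet score passed 0.1 (16 WT and 181 Mettl3pKO cells). Classes need not be those of the submitters.

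UMIs were summed per class and library and divided by total UMIs. Levels have exact Poisson, shares exact Clopper-Pearson and ratios exact conditional binomial 95% intervals. A ratio needed 20 UMIs over both libraries and 30 cells in each, and was called at 1.5-fold. For a count of 0, the upper limit was set at 3 counts. On simulated class sums with 200 changed genes, 95.5% of the intervals for acinar-like cells held the true ratio. The simulation drew Poisson sums, for which these intervals are exact, so that it checks the calculation only. It left out UMIs that lie together in single cells, for which the intervals are too narrow. Alternatives covered filters, doublets, clustering, depth, sex, scaling and top cells.

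The members, gene lists and markers were chosen with earlier results of these data known. Named were the 8 members, up to 4 genes of each list with the epithelial ratio farthest from 1, the 10 genes per library with the highest ratio in cells with 3 or more UMIs of Ifit1, Ifit3 and Rsad2, the 2 genes most like each member, and Mettl3. The contrast of mesenchyme-like and macrophage-like cells rich in Ifit1 and Ifit3, and the genes named in it, were chosen after the values were seen. So were the settings that leave out cells rich in Ifit1 and Ifit3, mesothelium-like ones included, or the Neurog3-led or the Car2-led cluster. The same holds for leaving out the alpha-like cell with most Ifitm1 or the duct and trunk-like cell with most Ifit1. All these single cells were WT, so that the ratio of the gene that chose them had to rise. Some genes of the lists are not reported here by name.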

Additional observations from a re-analysis of the deposited data

Results flagged for a closer look

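Ifitm1 went in opposite directions in different classes under the same contrast. The Mettl3pKO to WT ratio was 2.26 in acinar-like, 9.67 in beta-like, 3.59 in duct and trunk-like and 3.27 in macrophage-like cells. It was 0.178 in alpha-like, 0.605 in mesenchyme-like and 0.573 in mesothelium-like cells. Within the 6 acinar clusters it was 1.25 to 2.16. The differences between classes were not tested, since there was 1 library per genotype. The alpha-like value rested on 1 WT cell and was 0.940 without it, and the macrophage-like value rested on 7 WT and 21 Mettl3pKO UMIs.

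Bst2 stood at a ratio of 2.05 in erythroid-like and 0.666 in mesenchyme-like cells, a difference that was not tested. Within the Hbb-bt-led erythroid cluster alone (43 WT and 45 Mettl3pKO cells) the ratio was 0.925 (0.512 to 1.70), so that the direction turned. Mesenchyme-like cells without those rich in Ifit1 and Ifit3 had a Bst2 ratio of 0.858, and the erythroid-like cells were those in which acinar markers were 2.15 times as high in Mettl3pKO.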

How the results depend on the processing

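Of the ratios of single genes under the alternatives, 428 stayed within their counting interval, 93 moved beyond it and 6 reversed. Ifitm1 in alpha-like cells became 4.44 under a stricter filter (500 genes, 10% mitochondrial UMIs), and 2.62 with classes from each cell's own markers. Ifitm1 in macrophage-like cells became 0.932 with that filter. Isg15 in mesenchyme-like cells became 1.32 in cells with Xist and no Y-linked UMIs, and Bst2 there became 1.26 with classes from own markers. Bst2 in erythroid-like cells became 0.925 without the Car2-led cluster. The causes were not tested.

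Of the 30 calls by class, 20 were lower: 8 remained as a count above the common depth floor, 6 in cells with Y-linked UMIs only, 10 with Xist UMIs only and 12 without the 10 top cells of each gene. The 10 higher became 5 with Xist UMIs only. A smaller subset leaves fewer values with enough UMIs for a call, so that a lost call need not be a lost difference. Outside the epithelium the 5 lower became 3 with Y-linked or Xist UMIs only, and 1 rather than 0 was higher with own markers. For the 111 other pathway genes, the 6 higher became 11 with a minimum of 5 UMIs and 1 at 2-fold, and the 31 lower became 15 at 2-fold and 13 with the stricter filter. No share over all genes is given for any of these settings, so that these counts cannot be set against a background.

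No paired analysis was possible because each genotype has 1 library. Depth limits Ifit3 and Isg15, which had too few UMIs for a ratio in acinar-like, duct and trunk-like, alpha-like and beta-like cells, and Ifit1 in acinar-like and beta-like cells.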

Other observations

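Over all classes, 114 WT cells (1.89%) and 23 Mettl3pKO cells (0.635%) had 3 or more UMIs of Ifit1, Ifit3 and Rsad2 summed. Of these, 75 WT and 20 Mettl3pKO cells had Rsad2 but no UMI of Ifit1 or Ifit3. In the 114 WT cells the 10 genes with the highest ratio to other cells were Mx1 (18.8 against 0.0828 CPM), Ifit3b, F830016B08Rik, Iigp1, Gm4951, Ccl12, Cxcl10, Slfn8, Gbp4 and Ifi44. Mx1 encodes a GTPase that blocks influenza virus. It had UMIs in 18 of the 114 cells and Cxcl10 in 22, and Ccl12 had 190 UMIs in 7.

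In the 23 Mettl3pKO cells, of which 10 were acinar-like, 6 beta-like and 4 alpha-like, the 10 genes were Gip (121 against 2.18 CPM), Fgb, Bace2, Npy, Mrc1, Cartpt, Fkbp1b, Gal, Stk32a and Gpr45. Gip, Npy, Cartpt and Gal encode secreted peptides. Fgb and Mrc1 each came from 2 cells. The comparison in each library was with all its other cells and not within a class, so that the mix of classes enters it.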
